A study of Mus musculus with 4 samples.

Results

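The course of differentiation of embryoid bodies (EBs) that lack the kinases Mst1 and Mst2 was followed from day 4 to day 8. EBs are floating aggregates in which embryonic stem (ES) cells leave pluripotency and begin to form the germ layers. The comparison took the array of *Mst-/-* EBs at day 8 and subtracted the array of *Mst-/-* EBs at day 4, which are 2 of the 4 Affymetrix mouse exon arrays of the series. The other 2 arrays, of wild type EBs at day 8 and day 4, stand beside them. The *Mst-/-* arrays carry deletions of both *Mst1* and *Mst2* at both days, and in each gene the deleted exons encode part of the kinase domain. The *Mst-/-* ES cells came from blastocysts of C57BL/6 parents that were heterozygous for the *Mst1* null allele and homozygous for that of *Mst2*, were first grown on fibroblast feeders and were later adapted to grow without them. The sources used here do not name the *Mst-/-* line that gave the arrays. EBs of both genotypes were kept in non-adherent dishes in ES cell medium from which the self-renewal factors LIF and 2i, a pair of kinase inhibitors, had been left out, and no lineage was induced by added factors.

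Mst1 and Mst2 are the upstream kinases of the Hippo pathway. They activate the kinases Lats1 and Lats2, which phosphorylate the coactivators Yap and Taz and keep them out of the nucleus, where these would act with the Tead transcription factors. In EBs the pluripotency genes are switched off over several days. A passing state like the primitive streak of the gastrulating embryo follows, and mesoderm and endoderm then give rise to heart muscle, vessels, primitive red cells and a yolk sac-like endoderm.

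With 1 array per genotype and day no test was possible, and the spread between cultures is unknown. The values are log2 signals, as deposited, of probe sets that each read a stretch of an exon. A gene's signal is the median of those of its probe sets that carry 1 gene symbol (16358 genes, median 11 probe sets a gene), and a difference is the signal at day 8 minus that at day 4 on the log2 scale. The value after ± is the SD of the differences among the probe sets of a gene, a technical spread within 1 pair of arrays. As background served the 95th percentile of the 1007 genes of odorant and pheromone receptors, which lay at 6.92 for *Mst-/-* EBs at day 8 and 6.96 at day 4, and a gene was compared when it was above it on at least 1 of both arrays. For a gene below background on 1 array, the fold is given as a bound, for which the background of that array took the place of its signal. Counts and medians use the signals as deposited, also those below background. Over all genes compared, 1472 were higher and 832 lower once dim signals were raised to background. "Higher", "lower", "rose" and "fell" are used for genes past the study's threshold of 1.5-fold. Among the receptor genes themselves 18.6% passed it in either direction, and their differences had an SD of 0.46, so that a change of a dim gene near the threshold is within the scatter of genes with no known use in EBs. In a mixture of cells, fewer cells of a type and less RNA per cell cannot be told apart.

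The deletion was visible on both *Mst-/-* arrays. *Stk4*, which encodes Mst1, was read by 13 probe sets. Of these, 2 were at 4.36 and 3.87 at day 8 and at 3.83 and 4.80 at day 4, against 11.44 and 11.42 at day 8 and 12.03 and 11.83 at day 4 in wild type EBs. The other 11 lay between 8.17 and 11.85 at day 8 and between 8.92 and 12.09 at day 4 in *Mst-/-* EBs. *Stk3*, which encodes Mst2, was not analysed here. The Y-linked genes *Eif2s3y* and *Kdm5d* were below background on both *Mst-/-* arrays, at 4.22 and 5.41 at day 8 and 4.07 and 5.27 at day 4. In wild type EBs *Eif2s3y* was at 10.38 at day 8 and 10.39 at day 4, so that the 2 genotypes also differed in Y-linked signal. One label field of the later *Mst-/-* array gives day 4, whereas its title and cell type label give day 8. It was taken as day 8.

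Between day 4 and day 8, 1609 of 12133 genes rose in *Mst-/-* EBs (13.3%) and 908 fell (7.48%). Past 2-fold, 781 genes (6.44%) were higher and 229 (1.89%) lower. In wild type EBs 2014 of 12077 genes (16.7%) were higher and 1531 (12.7%) lower. The split of the *Mst-/-* counts depended on scaling, since 63.9% of the genes past the threshold were higher in the deposited values, 53.2% after quantile normalization and 42.0% after each array was centred on its median over all genes, which moved the median difference from -0.01 to -0.17.

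By the difference of the signals, the largest rises were those of *Bmp5*, a ligand of the bone morphogenetic protein (BMP) family, and *Postn*, a matrix protein of mesenchyme and developing heart valves. *Bmp5* was at 10.88 at day 8 and 5.50 at day 4, at least 15.1-fold higher, and *Postn* at 11.67 at day 8 and 6.34 at day 4, at least 26.2-fold higher. In wild type EBs *Bmp5* was at 10.18 at day 8 and already at 9.22 at day 4. *Nrp1*, a coreceptor for semaphorins and VEGF, was at 11.82 at day 8 and 6.97 at day 4 in *Mst-/-* EBs (4.86 ± 1.33). On the wild type arrays it was at 12.56 at day 8 and at 11.30 at day 4. *Capn6*, a calpain without protease activity, had the same shape, with 11.78 at day 8 and 7.29 at day 4 in *Mst-/-* EBs, and 12.11 at day 8 and 10.36 at day 4 in wild type EBs. Thus *Bmp5*, *Nrp1* and *Capn6* were near or below background in *Mst-/-* EBs at day 4, where wild type EBs had them well above it. At day 8 they were much nearer to the wild type signals, *Bmp5* above and *Nrp1* and *Capn6* below. *Emcn*, an endothelial sialomucin, *Tdo2*, which degrades tryptophan, *Nepn*, a small leucine-rich proteoglycan, and *Igfbp5*, a secreted protein that binds insulin-like growth factors, were below background at day 4 and at least 6.41-fold, at least 4.58-fold, at least 4.96-fold and at least 16.7-fold higher at day 8.

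The largest falls were smaller in size. *Slc27a2*, a very long chain acyl-CoA synthetase, was at 7.82 at day 8 and 10.98 at day 4 (-3.16 ± 0.48), and *Ppp4r4*, a regulatory subunit of protein phosphatase 4, at 7.28 at day 8 and 10.09 at day 4 (-2.81 ± 0.85). Both fell in wild type EBs as well, at -2.40 and -1.81. *Cd80*, a costimulatory ligand of T cells, was at 6.76 at day 8, below background, and at 9.41 at day 4, at least 5.64-fold lower. Its wild type signals were 6.83 at day 8 and 7.33 at day 4. *Enpp2*, the secreted enzyme autotaxin, fell to 7.99, against 10.50 at day 4, and *Epha1*, an ephrin receptor of epithelia, to 8.34, against 10.60. *Nt5e*, the ectonucleotidase CD73, was at 8.58 at day 8 and 10.69 at day 4 (-2.11 ± 0.19). *Kcnj3*, *Gng3* and *Nefl*, genes known from neurons, were among these falls too, with differences of -2.56 ± 0.56, -2.37 ± 1.01 and -2.64 ± 0.33.

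**Figure D1:**
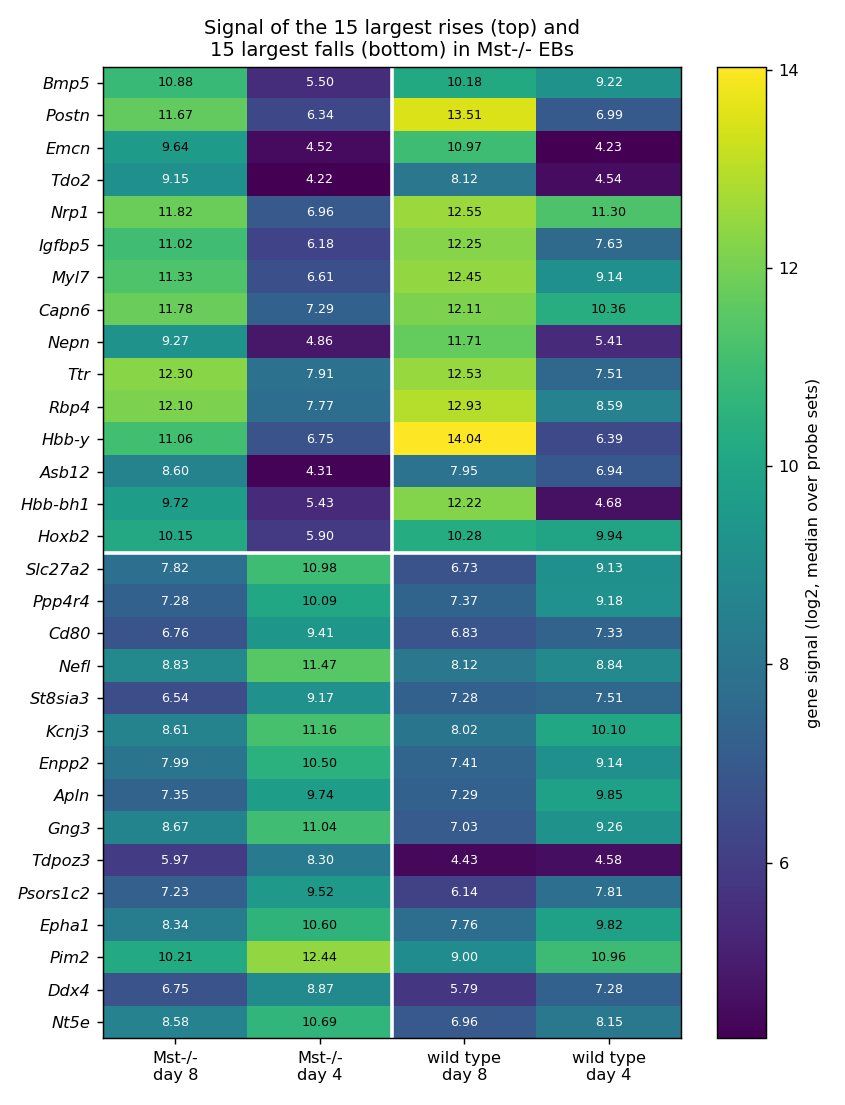
Log2 gene signals on the 4 arrays (colour and printed value) for the 15 genes with the largest rises and the 15 with the largest falls between day 4 and day 8 in *Mst-/-* EBs, with *Mst-/-* arrays in the left columns and wild type arrays in the right ones. *Bmp5*, *Nrp1*, *Capn6* and *Hoxb2* are dark at day 4 in *Mst-/-* EBs alone, at 5.50, 6.97, 7.29 and 5.90.

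Over 11697 genes compared in both genotypes, the *Mst-/-* course and the wild type course had a Pearson correlation of 0.63 and a Spearman correlation of 0.59, given as a description across genes, which are not independent replicates. The differences had an SD of 0.63 in *Mst-/-* EBs and 0.76 in wild type EBs. Of 1568 genes higher in the *Mst-/-* course 978 were also higher in the wild type course, 62.4% of the first list and 53.5% of the 1829 genes of the second, and 64 were lower there. Of 805 genes lower in the *Mst-/-* course 415 were lower in wild type EBs too (51.6%, and 28.1% of the 1475 genes lower in wild type EBs), and 35 were higher.

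**Figure D2:**
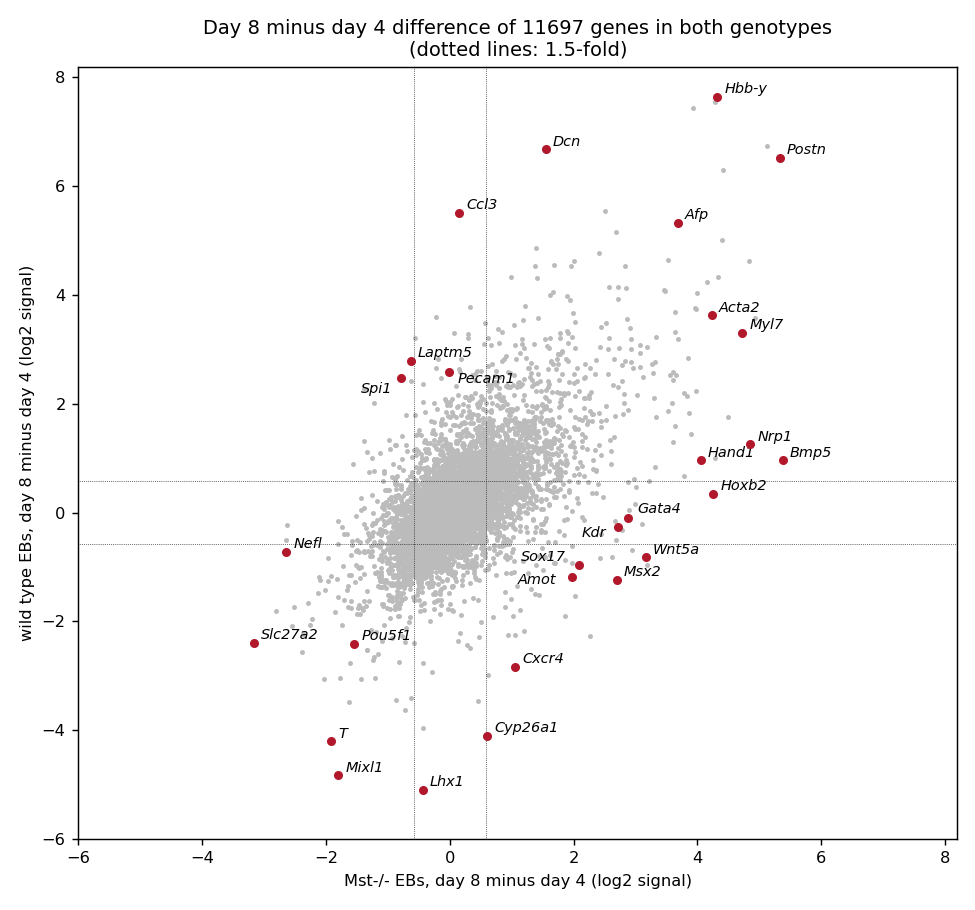
Difference between day 8 and day 4 in *Mst-/-* EBs (x axis, log2 signal) and in wild type EBs (y axis, log2 signal) for 11697 genes (grey), with some named genes in red and dotted lines at 1.5-fold. *Lhx1* and *Cyp26a1* lie far below 0 on the y axis, at -5.10 and -4.11, and near 0 on the x axis, at -0.44 and 0.61.

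The list medians gave an outline of the course. Genes of heart muscle, yolk sac endoderm, fibroblasts, matrix and BMP signalling had the highest medians in *Mst-/-* EBs, between 1.09 and 2.03, and genes of the primed epiblast, neurons, the primitive streak and the germline the lowest, between -0.77 and -0.69. The median over all genes compared was -0.01. For the list counts below, the shares over all genes compared were 13.3% higher and 7.48% lower in *Mst-/-* EBs. In wild type EBs these shares were 16.7% and 12.7%. Lists can share genes, as those of fibroblasts and matrix share *Postn*. With dim signals raised to background, the heart muscle median of 2.03 became 1.36. Those of yolk sac endoderm and fibroblasts were then 1.52 and 1.59.

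**Figure D3:**
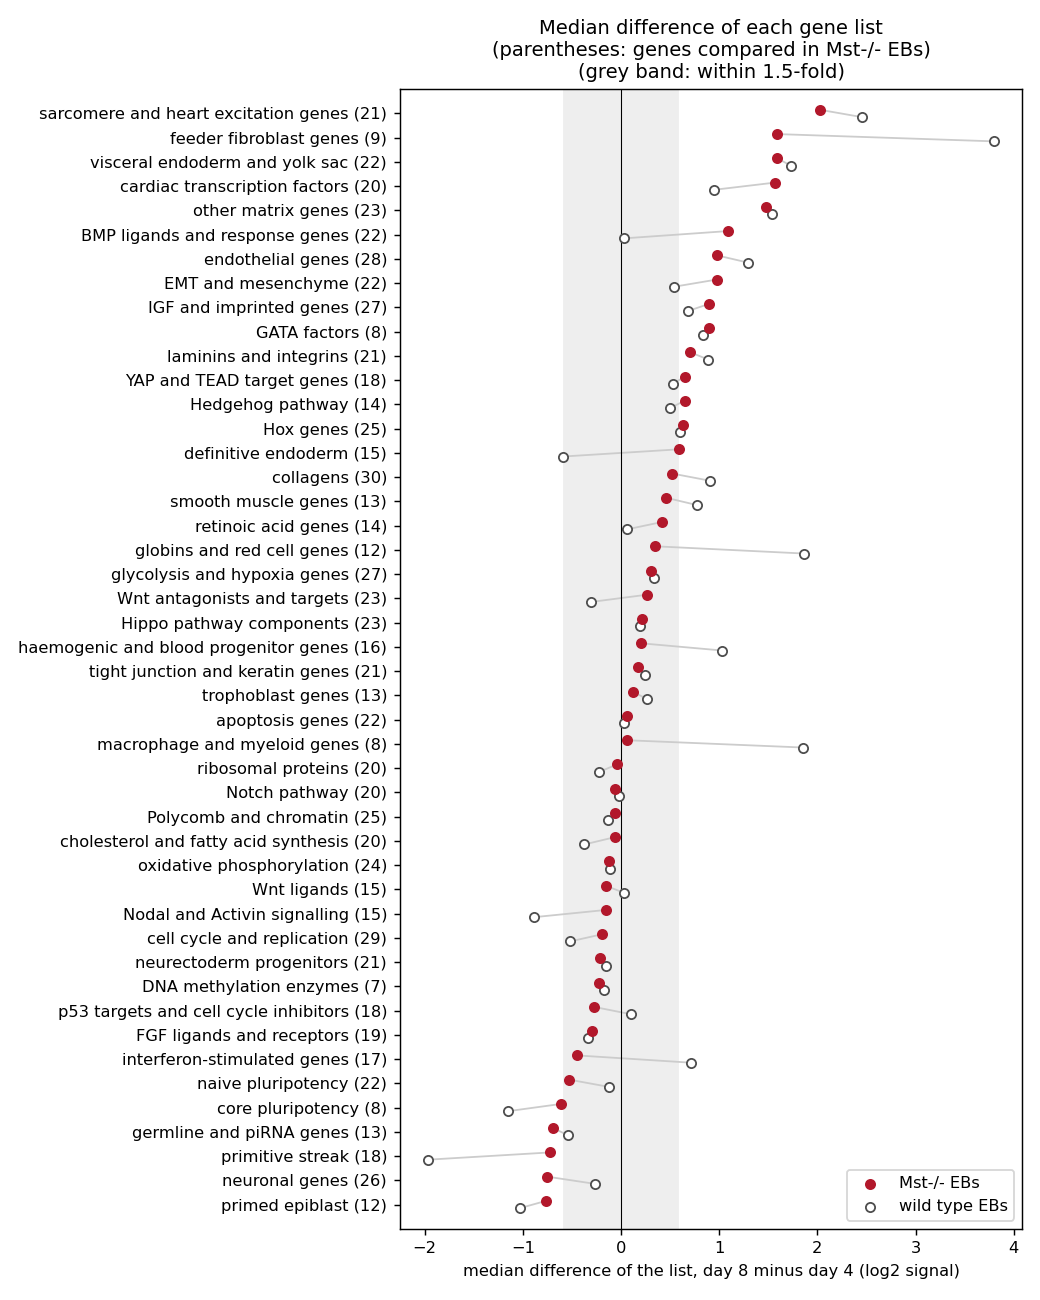
Median difference between day 8 and day 4 (x axis, log2 signal) of each gene list with at least 5 genes compared, in *Mst-/-* EBs (red) and wild type EBs (open circles). The grey band marks 1.5-fold, and the BMP, definitive endoderm, red cell, macrophage, primitive streak and interferon lists are among those whose circles lie far apart.

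The pluripotency genes fell in part. In the list of core factors, 0 of the 8 genes compared were higher at day 8 and 5 lower, beside 13.3% higher and 7.48% lower among all genes compared, and its median was -0.61, beside -1.15 in wild type EBs, though -0.37 in *Mst-/-* EBs from the brightest probe sets. *Pou5f1*, which encodes Oct4, was at 10.98 at day 8 and 12.52 at day 4 (-1.54 ± 0.15, 7 probe sets), a fall of 2.91-fold. The wild type difference was -2.41. *Tdgf1*, the Nodal coreceptor Cripto, fell to 11.70, against 13.14 at day 4, and *Utf1*, a chromatin factor of ES cells, to 11.26, against 12.27. *Sox2*, the partner of Oct4, was at 11.68 at day 8 and 12.27 at day 4 (-0.59 ± 0.15), while in wild type EBs its difference was 0.66. *Sall4*, a zinc finger factor of pluripotent cells, and *Lin28a*, which blocks maturation of let-7, stayed within 1.5-fold in *Mst-/-* EBs, at -0.23 ± 0.08 and 0.05 ± 0.12, whereas they were lower in wild type EBs, at -1.64 and -1.35.

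Of the naive pluripotency list, 1 of the 22 genes compared was higher at day 8 and 9 lower, and the median was -0.53, beside -0.12 in wild type EBs. *Nanog* was among the brighter genes at both times, at 12.25 at day 8 and 13 at day 4, with a difference of -0.75 ± 0.15. *Lefty1* and *Gdf3*, secreted proteins of the transforming growth factor family, differed by -1.65 ± 0.31 and -1.46 ± 0.60. *Dppa4* and *Dppa2*, a pair of chromatin proteins of early embryos, differed by -1.38 ± 0.40 and -0.95 ± 0.30. These 4 genes fell in wild type EBs as well. *Esrrb*, the orphan receptor of naive cells, was at 9.65 at day 8 and 10.28 at day 4 (-0.63 ± 0.24) and *Dppa3* at 7.98 at day 8 and 8.96 at day 4 (-0.98 ± 0.39), of which *Esrrb* differed by 0.42 in wild type EBs and *Dppa3* was below background there. *Klf5* and *Fgf4* stayed within 1.5-fold, at -0.53 ± 0.17 and -0.32 ± 0.08. *Tbx3* was the only rise of the list, at 10.63 at day 8 and 8.66 at day 4 (1.97 ± 0.83). It encodes a T-box factor that also serves heart and endoderm, and its wild type difference was -0.93.

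Genes of the primed epiblast, the state that follows the naive one, had a lower median of -0.77 (-0.56 from the brightest probe sets), and 1 of the 12 genes compared was higher at day 8 and 8 lower. *Fgf5*, its best known marker, was at 9.40 at day 8 and 11.03 at day 4 (-1.63 ± 0.26), and *Pou3f1* at 7.92 at day 8 and 9.35 at day 4 (-1.43 ± 0.91). *Pim2*, a serine/threonine kinase, fell to 10.21, against 12.44 at day 4 (-2.23 ± 0.41), and *Otx2*, a homeobox factor of epiblast and forebrain, by 0.66 with an SD of 0.29. The wild type differences of *Fgf5* and *Otx2* were -3.48 and -2.02. Of the DNA methylation enzymes, *Dnmt3b* and its cofactor *Dnmt3l* fell, at -1.23 ± 0.19 and -0.78 ± 0.16, whereas the maintenance methyltransferase *Dnmt1* and its partner *Uhrf1* were at 0.03 ± 0.19 and -0.32 ± 0.09. *Tet2*, which oxidizes methylcytosine, was at 0.54 ± 0.49, within 1.5-fold, and at 1.74 in wild type EBs. *Dnmt3a* and *Tdg* differed by -0.22 and -0.21.

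Many genes of germ cells and of the piRNA pathway fell, as 0 of the 13 genes compared were higher at day 8 and 9 lower (7 with dim signals raised to background). From the brightest probe sets the median of the list was -0.37, in place of -0.69. *Ddx4*, the RNA helicase Vasa, was at 6.75 at day 8 and 8.87 at day 4, at least 3.88-fold lower. *Mael*, needed for transposon silencing in the germline, differed by -1.22 ± 0.63, and the X-linked homeobox genes *Rhox6* and *Rhox9* by -0.87 ± 0.82 and -0.88 ± 0.17, where wild type EBs had 0.65 and 0.31. *Tdrd1* and *Sycp3* ended below background and were at least 1.26-fold and at least 1.32-fold lower.

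The primitive streak genes had mostly fallen in *Mst-/-* EBs, and the difference from the larger falls of wild type EBs was not tested. In *Mst-/-* EBs 0 of the 18 genes compared were higher at day 8 and 12 lower (11 with dim signals raised to background). The median was -0.72 (-0.36 from the brightest probe set of each gene). Of the same list 16 of 18 fell in wild type EBs, with a median of -1.97. *T*, or brachyury, the T-box factor of nascent mesoderm, was at 9.91 at day 8 and 11.83 at day 4 (-1.92 ± 0.66) in *Mst-/-* EBs and at 8.31 at day 8 and 12.52 at day 4 in wild type EBs. *Mixl1*, a homeobox factor of the streak, was at 9.72 at day 8 and 11.52 at day 4 (-1.80 ± 0.13), and at 7.74 at day 8 and 12.57 at day 4 in wild type EBs. Both genes were thus below the wild type signal at day 4 and above it at day 8. *Gsc*, the organizer factor goosecoid, differed by -1.20 ± 0.11 and *Wnt3* by -0.83 ± 0.35. *Wnt8a* was at 7.66 at day 8 and 9.76 at day 4 (-2.10 ± 1.37), with a wide spread over its 11 probe sets. *Mesp1*, which marks the earliest heart mesoderm, was below background at day 8 and at least 1.47-fold lower. This bound is short of 1.5-fold, so that its fall past the threshold is not shown. *Cer1*, a secreted antagonist of Nodal, and *Lhx1*, a LIM homeobox factor of node and head organizer, stayed within 1.5-fold in *Mst-/-* EBs, at -0.44 ± 0.14 and -0.44 ± 0.11. Both were lower in wild type EBs, at -3.97 and -5.10. *Snai1*, the repressor that drives cells through the streak, was at 0.05 ± 0.18 and at -1.81 in wild type EBs.

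The Nodal and Activin list moved both ways. Of its 15 genes compared 4 were higher at day 8 and 5 lower, beside 13.3% and 7.48% of all genes compared. Its fallen genes were the ligands *Nodal* (-1.45 ± 0.76) and *Gdf3*, the coreceptor *Tdgf1*, and the secreted antagonists *Lefty1* and *Fst*, or follistatin (-1.45 ± 0.31). The risen ones included *Cfc1*, the other coreceptor Cryptic, at 9.43 at day 8 and 8.38 at day 4 (1.05 ± 0.24), and the signal transducer *Smad3* (1.19 ± 0.25), where wild type EBs had -2.26 and 1.15. *Foxh1*, which carries Smad2 to its targets, was at -0.44, and at -2.78 in wild type EBs.

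BMP ligands, receptors and response genes rose as a group. In *Mst-/-* EBs 15 of the 22 genes compared were higher at day 8 and 0 lower, and in wild type EBs 7 of 21 were higher and 5 lower. The median was 1.09, beside 0.04 in wild type EBs. Beside *Bmp5*, the ligand *Bmp4*, which induces ventral mesoderm, was at 11.12 at day 8 and 8.90 at day 4 (2.22 ± 0.66). *Bmper*, an extracellular modulator of BMPs, was at 9.02 at day 8 and 7.0 at day 4 (2.02 ± 1.06), and *Bambi*, a decoy receptor induced by BMP, at 11.35 at day 8 and 9.35 at day 4 (2.01 ± 0.23). *Msx2*, a homeobox target of BMP signalling, was at 11.22 at day 8 and 8.52 at day 4 (2.70 ± 0.63). In wild type EBs *Bmper* and *Msx2* moved the other way, at -1.54 and -1.24, and *Bambi* the same way, at 1.02. For *Msx2* the day 4 *Mst-/-* array was the lowest of the 4, as wild type EBs had 9.89 at day 8 and 11.12 at day 4. *Smad9* was below background at day 4 and at least 2.2-fold higher. The receptor *Bmpr1a* and the transducer *Smad5* were within 1.5-fold, at 0.44 and 0.55.

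Endoderm genes rose in both of the lists that were made for them. Of the definitive endoderm genes, which the gut arises from, 8 of the 15 genes compared were higher at day 8 and 2 lower, and the median was 0.60, beside -0.60 in wild type EBs. *Foxa1*, a forkhead factor that opens chromatin, was at 10.53 at day 8 and 8.14 at day 4 (2.39 ± 1.04), and *Sox17* at 10.00 at day 8 and 7.92 at day 4 (2.08 ± 0.90), whereas *Sox17* was at 9.05 at day 8 and 10.01 at day 4 in wild type EBs. *Cxcr4*, the chemokine receptor used to sort endoderm, was at 8.42 at day 8 and 7.36 at day 4 (1.06 ± 0.28). Its wild type signals were 7.36 at day 8 and 10.20 at day 4. Both genes moved in opposite directions in the 2 genotypes. *Foxa3* and *Hnf4a* rose by 1.27 and 1.06, though *Hnf4a* was at -0.18 in its brightest probe set, while *Foxa2* was within 1.5-fold at -0.33 ± 0.20. Some of these genes are also used by endothelium and visceral endoderm. From the brightest probe set of each gene the median of the list was 0.10.

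The visceral endoderm and yolk sac list had a high median, 1.59, close to that of wild type EBs, 1.73, and 19 of the 22 genes compared were higher at day 8 and 0 lower. *Ttr*, the thyroxine carrier transthyretin, was at 12.30 at day 8 and 7.91 at day 4 (4.39 ± 2.00), and *Rbp4*, which carries retinol, at 12.10 at day 8 and 7.77 at day 4 (4.33 ± 2.06). *Spink1*, a trypsin inhibitor, was at 11.50 at day 8 and 7.72 at day 4 (3.78 ± 0.91), where its wild type difference was 0.67. *Afp*, or alpha-fetoprotein, and *Apom*, an apolipoprotein, were below background at day 4 and at least 4.91-fold and at least 3.63-fold higher at day 8. *Apoa1*, the main protein of high density lipoprotein, was at 10.65 at day 8 and 7.20 at day 4 (3.46 ± 2.08). *Trf*, the iron carrier transferrin, was at 7.72 at day 8 and 7.98 at day 4 (-0.26 ± 0.27), and at 9.36 at day 8 and 7.36 at day 4 in wild type EBs. *Alb*, or albumin, was below background on both *Mst-/-* arrays, at 6.0 and 6.10, and reached 8.03 at day 8 in wild type EBs. *Apoa2* differed by -0.02.

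GATA factors, zinc finger proteins of endoderm, heart and blood, mostly rose, as 6 of the 8 genes compared were higher at day 8 and 0 lower. *Gata4* also stands among the cardiac transcription factors below. *Gata4*, shared by heart and extraembryonic endoderm, was at 11.41 at day 8 and 8.52 at day 4 (2.89 ± 0.62), whereas wild type EBs had 11.20 at day 8 and 11.31 at day 4, so that the 4 arrays were alike except for the day 4 *Mst-/-* array. *Gata6* was at 11.28 at day 8 and 9.69 at day 4 (1.59 ± 0.67) and *Gata5* at 8.43 at day 8 and 7.12 at day 4 (1.31 ± 1.22). *Gata3* and the cofactors *Zfpm1* and *Zfpm2* differed by 0.71 ± 0.73, 1.09 ± 0.68 and 0.66 ± 0.75. The blood factors *Gata1* and *Gata2* were within 1.5-fold, at 0.50 and 0.30, and *Gata1* was at 1.43 in wild type EBs.

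Genes of heart development rose. Of the cardiac transcription factors, 17 of the 20 genes compared were higher at day 8 and 1 lower (0 lower with dim signals raised to background). In wild type EBs 12 of 20 were higher and 1 lower. *Hand1*, a basic helix-loop-helix factor of the heart tube and extraembryonic mesoderm, was at 11.11 at day 8 and 7.06 at day 4 (4.05 ± 1.42), and at 11.30 at day 8 and 10.34 at day 4 in wild type EBs. *Hand1* was thus near background on the day 4 *Mst-/-* array and high on the other 3. *Tbx20*, a T-box factor of cardiac muscle and valves, was at 11.88 at day 8 and 8.24 at day 4 (3.64 ± 0.49), and *Isl1*, which marks second heart field progenitors, at 9.36 at day 8 and 7.0 at day 4 (2.36 ± 0.90). *Mef2c*, which acts on muscle promoters, was below background at day 4 and at least 7.52-fold higher. *Foxf1*, a forkhead factor of splanchnic mesoderm read by 2 probe sets, was at least 12.4-fold higher. *Nkx2-5*, the early cardiac homeobox factor, changed less, at 9.15 at day 8 and 8.49 at day 4 (0.66 ± 0.49), and *Smarcd3*, the cardiac chromatin subunit Baf60c, was at 8.66 at day 8 and 7.11 at day 4 (1.55 ± 1.27). In their brightest probe sets these 2 genes were at -0.06 and -0.25. *Tbx5* was below background on both *Mst-/-* arrays, at 6.39 and 5.73. *Wt1*, a gene of the epicardium, differed by -0.03 ± 0.33 and by 1.77 in wild type EBs.

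The genes of the contractile apparatus followed, and 18 of the 21 genes compared were higher at day 8 and 0 lower. Their median was 2.03, beside 2.45 in wild type EBs. With dim signals raised to background, 16 were higher in *Mst-/-* EBs and the median was 1.36. *Myl7*, the atrial light chain of myosin, was at 11.33 at day 8 and 6.61 at day 4, at least 20.7-fold higher. *Actc1*, cardiac actin, was at 12.20 at day 8 and 9.02 at day 4 (3.18 ± 0.90), and *Myl4*, a light chain of atrial and embryonic muscle, at 12.52 at day 8 and 8.99 at day 4 (3.53 ± 0.81). *Myh7*, the slow heavy chain of myosin, was below background at day 4 and at least 11.1-fold higher, and the troponin *Tnnc1* at least 7.62-fold higher. *Tnnt2*, cardiac troponin T, was at 10.58 at day 8 and 7.10 at day 4 (3.48 ± 2.14), with a brightest probe set that differed by -0.09. *Myh6*, the heavy chain of fast cardiac myosin, ended at 8.85 at day 8, against 10.44 in wild type EBs at that day. *Actn2* and *Ldb3*, proteins of the Z disc, differed by 0.54 ± 0.59 and 0.71 ± 0.54 in *Mst-/-* EBs and by 2.10 and 2.40 in wild type EBs. The brightest probe set of *Ldb3* was at -0.04 in *Mst-/-* EBs. *Atp2a2*, the calcium pump of the reticulum, was within 1.5-fold at -0.22 ± 0.12.

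**Figure D4:**
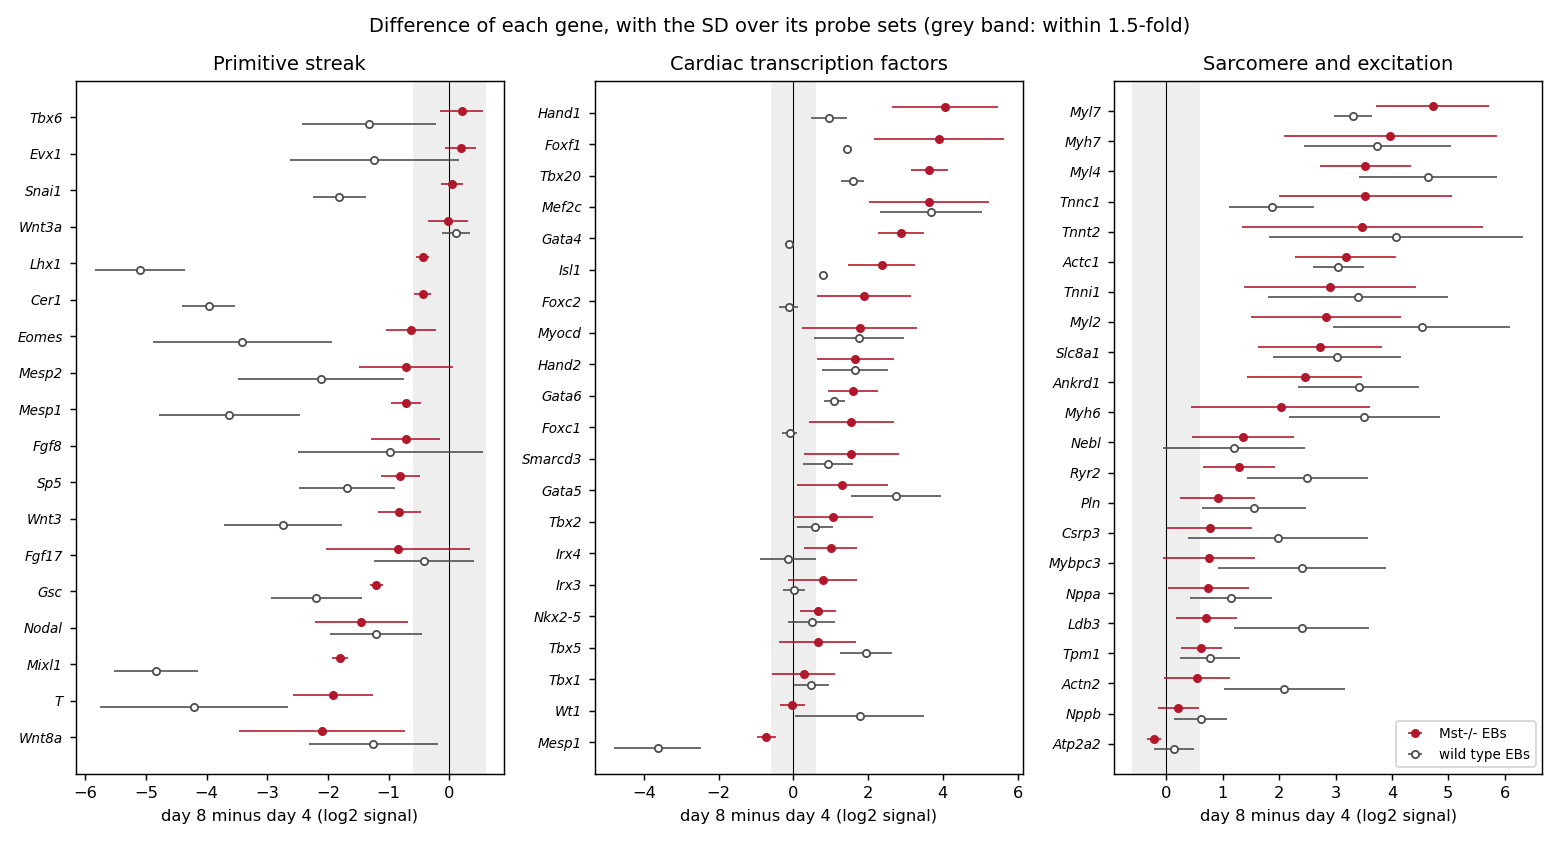
Difference between day 8 and day 4 (x axis, log2 signal) of the primitive streak genes, cardiac transcription factors and sarcomere genes in *Mst-/-* EBs (red) and wild type EBs (open circles), with bars for the SD over each gene's probe sets. The streak genes *Lhx1*, *Cer1*, *Mixl1* and *T* lie at -0.44, -0.44, -1.80 and -1.92 in *Mst-/-* EBs and at -5.10, -3.97, -4.83 and -4.21 in wild type EBs, while *Hand1*, *Tbx20* and *Gata4* lie further right in *Mst-/-* EBs.

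The promoters of *Myl7* and *Actc1* are shown because both genes rose strongly in *Mst-/-* EBs and hold, in the 250 bases before their starts, a CArG box, the sequence known to bind serum response factor, which drives many muscle genes. The sequences are those of RefSeq on GRCm38.p6, written from 5′ to 3′ on the gene's own strand and ending at the base before the start, with the CArG box in capitals. *Myl7* lies on the minus strand at chr11:5898783-5899032, with the box beginning 61 bases before its start, and *Actc1* on the minus strand at chr2:114052876-114053125, with the box 47 bases before its start.
Myl7: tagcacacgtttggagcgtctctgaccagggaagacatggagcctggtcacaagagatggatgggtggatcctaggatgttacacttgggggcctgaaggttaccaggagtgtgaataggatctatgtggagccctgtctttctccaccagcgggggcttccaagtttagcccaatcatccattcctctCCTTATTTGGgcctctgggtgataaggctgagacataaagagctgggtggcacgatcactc
Actc1: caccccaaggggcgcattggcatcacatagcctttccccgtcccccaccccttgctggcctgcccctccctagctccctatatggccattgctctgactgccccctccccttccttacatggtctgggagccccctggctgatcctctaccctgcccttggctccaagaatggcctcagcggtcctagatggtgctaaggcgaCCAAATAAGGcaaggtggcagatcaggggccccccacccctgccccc

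A CArG box was found in 4 of the 23 sarcomere and excitation genes with a promoter in the RefSeq table (17.4%) and in 3 of 12 smooth muscle genes (25%), searched on both strands, beside 482 of all 32851 promoters (1.47%), or 1.62% of all genes. The other sarcomere genes with a box were *Nebl* and *Ldb3*, at 1.36 and 0.71. The 3 smooth muscle genes with a box, *Myl9*, *Cnn2* and *Vcl*, were all within 1.5-fold, at -0.11, 0.55 and -0.17. A match is a stretch of letters and not a bound site.

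Smooth muscle genes had a smaller median, and 4 of the 13 genes compared were higher at day 8 and 1 lower. *Acta2*, smooth muscle actin, which early heart muscle also uses, was at 13.08 at day 8 and 8.85 at day 4, and its difference of 4.24 ± 0.22 was shared closely by its 10 probe sets. *Des*, desmin, and *Cald1*, caldesmon, rose by 1.40 and 1.28. *Tagln* and *Myl9* were within 1.5-fold, at -0.16 ± 0.15 and -0.11 ± 0.12, where wild type EBs had 1.15 and 1.25. *Cnn1*, calponin, fell to 8.95, against 9.74 at day 4.

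Vessel genes rose and most blood genes did not. Of the endothelial genes, 17 of the 28 genes compared were higher at day 8 (15 with dim signals raised to background) and 0 lower. The median was 0.98, beside 1.29 in wild type EBs, though 0.31 in *Mst-/-* EBs from the brightest probe set of each gene. *Kdr*, the VEGF receptor of vessels and of their mesodermal precursors, was at 9.83 at day 8 and 7.11 at day 4 (2.72 ± 0.70) in *Mst-/-* EBs and at 10.96 at day 8 and 11.22 at day 4 in wild type EBs. Here too the day 4 *Mst-/-* array stood lowest. *Cdh5*, VE-cadherin of endothelial junctions, was at 10.20 at day 8 and 7.38 at day 4 (2.83 ± 1.10), similar to the wild type difference of 2.80. *Ramp2*, a subunit of the adrenomedullin receptor, was at 9.56 at day 8 and 7.37 at day 4 (2.19 ± 1.08), and *Fli1*, an ETS factor of vessels and blood, was at least 3.56-fold higher. *Pecam1*, an adhesion molecule of vessels that ES cells also carry, was at 10.19 at day 8 and 10.21 at day 4 (-0.02 ± 0.15), and at 10.03 at day 8 and 7.45 at day 4 in wild type EBs. *Eng*, a coreceptor of the transforming growth factor family, was at -0.55 ± 0.26 and 1.06 in that order of genotypes. *Etv2*, the ETS factor that founds vessels and blood, differed by 0.33 ± 0.38 in *Mst-/-* EBs and by -2.49 in wild type EBs.

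Genes of blood progenitors were split, as 6 of the 16 genes compared were higher at day 8 and 3 lower (2 with dim signals raised). In wild type EBs 12 of 19 were higher and 0 lower. Another 4 genes of the list were below background on both *Mst-/-* arrays. *Runx1*, needed for the emergence of blood from endothelium, was at 9.67 at day 8 and 8.03 at day 4 (1.64 ± 0.92), *Kit*, the receptor of stem cell factor, at 10.74 at day 8 and 9.01 at day 4 (1.73 ± 0.34), and *Cd34*, a sialomucin of progenitors and vessels, at 9.86 at day 8 and 7.92 at day 4 (1.94 ± 0.52). *Myb*, a factor of definitive blood, fell to 8.81, against 9.94 at day 4 (-1.13 ± 0.56). *Spi1*, the myeloid factor PU.1, and *Coro1a*, an actin regulator of leukocytes, were below background at day 8 and at least 1.27-fold and at least 1.91-fold lower, whereas their wild type differences were 2.47 and 1.10. *Tal1* and *Lmo2*, partners at the root of the blood lineage, were at 0.30 ± 0.42 and 0.44 ± 0.40. The platelet genes *Pf4* and *Gp9* were below background on both *Mst-/-* arrays.

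Embryonic globins appeared without most of the other red cell genes. The list had 20 genes, of which 8 were below background on both *Mst-/-* arrays. Of the rest, 4 of 12 were higher and 1 lower, against 18 higher and 0 lower of 20 in wild type EBs. With dim signals raised to background, 3 of the 12 were higher in *Mst-/-* EBs. *Hbb-y*, an embryonic beta-like globin, was at 11.07 at day 8 and 6.75 at day 4, at least 17.2-fold higher, and at 14.04 at day 8 and 6.40 at day 4 in wild type EBs. *Hbb-bh1*, of the same cluster, was at 9.73 at day 8 and 5.44 at day 4, at least 6.8-fold higher, and at 12.23 at day 8 and 4.68 at day 4 in wild type EBs. Both beta-like genes were below background on both day 4 arrays and brightest in wild type EBs at day 8. *Hba-x*, the embryonic alpha-like globin, was at 10.68 at day 8 and 7.99 at day 4 (2.69 ± 2.07), with a wild type difference of 5.15. Globin genes resemble each other closely, so that signal could be shared between them, and their probe sets spread widely, with SDs of 3.21, 3.36 and 2.07. *Alas2*, the first enzyme of haem synthesis in red cells, was at 7.12 at day 8 and 6.13 at day 4, at least 1.12-fold higher, which is just past background, while it was at 10.87 at day 8 and 6.54 at day 4 in wild type EBs. *Slc4a1*, the anion exchanger of the red cell membrane, was at 7.09 at day 8 and 6.76 at day 4, and at 10.65 at day 8 and 6.87 at day 4 in wild type EBs. *Slc25a37*, the mitochondrial iron importer mitoferrin, differed by 0.36 ± 0.26 and 2.53 in that order of genotypes, and *Rhag* was below background on both *Mst-/-* arrays and at least 4.83-fold higher in wild type EBs. *Tfrc*, the transferrin receptor, was at -0.31 ± 0.14.

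The promoter of *Alas2* is shown because it held the letters AGATAA, the core bound by GATA factors, read on either strand. The match here is the reverse complement, in capitals. Among the red cell genes with these letters, *Alas2* alone was counted as higher from the signals as deposited. Its bound of 1.12-fold is short of 1.5-fold, so that its rise past the threshold is not shown. The promoter lies on the plus strand at chrX:150547167-150547416 of GRCm38.p6, from RefSeq, and the match begins 86 bases before the start.
Alas2: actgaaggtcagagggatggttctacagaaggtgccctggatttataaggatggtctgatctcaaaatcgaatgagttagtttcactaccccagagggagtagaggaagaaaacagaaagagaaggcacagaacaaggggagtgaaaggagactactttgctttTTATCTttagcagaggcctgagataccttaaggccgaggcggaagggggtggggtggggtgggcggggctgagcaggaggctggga

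These letters occurred in 5 of the 15 red cell genes with a promoter (33.3%) and in 3281 of all 32851 promoters (9.99%), or 11.4% of all genes. Of the other 4, *Epb42* and *Trim10* were below background on both *Mst-/-* arrays and were not compared. *Rhd* was lower at -0.96 and *Epor* within 1.5-fold at -0.06. None of the 3 embryonic globins above held them in this window, which says nothing about GATA factors at these genes.

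Most macrophage genes were not above background in *Mst-/-* EBs. Of 25 genes, 17 were below background on both arrays, and of the other 8, 1 was higher and 2 lower (1 with dim signals raised). In wild type EBs 15 of 18 were higher and 0 lower. *Csf1r*, the receptor of the macrophage growth factor, was at 7.91 at day 8 and 7.17 at day 4 (0.74 ± 0.49), and at 8.65 at day 8 and 6.30 at day 4 in wild type EBs. *Ccl3*, a macrophage chemokine, was at 6.93 at day 8 and 6.78 at day 4, and at 11.51 at day 8 and 6.0 at day 4 in wild type EBs. The chemokine was thus bright on the wild type day 8 array alone. *Laptm5*, a lysosomal protein of blood cells, was at 8.38 at day 8 and 9.01 at day 4 (-0.63 ± 0.65), whereas wild type EBs had 9.92 at day 8 and 7.13 at day 4. *Fcer1g*, an adaptor of Fc receptors, was below background at both days in *Mst-/-* EBs and at least 7.28-fold higher in wild type EBs. *Cd68* was within 1.5-fold at 0.06 ± 0.19. *Plek*, or pleckstrin, a protein of platelets and leukocytes, was at 6.94 at day 8 and 5.55 at day 4, a rise that is lost when dim values are raised to background (-0.02), in *Mst-/-* EBs and at 10.96 at day 8 and 6.10 at day 4 in wild type EBs.

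**Figure D5:**
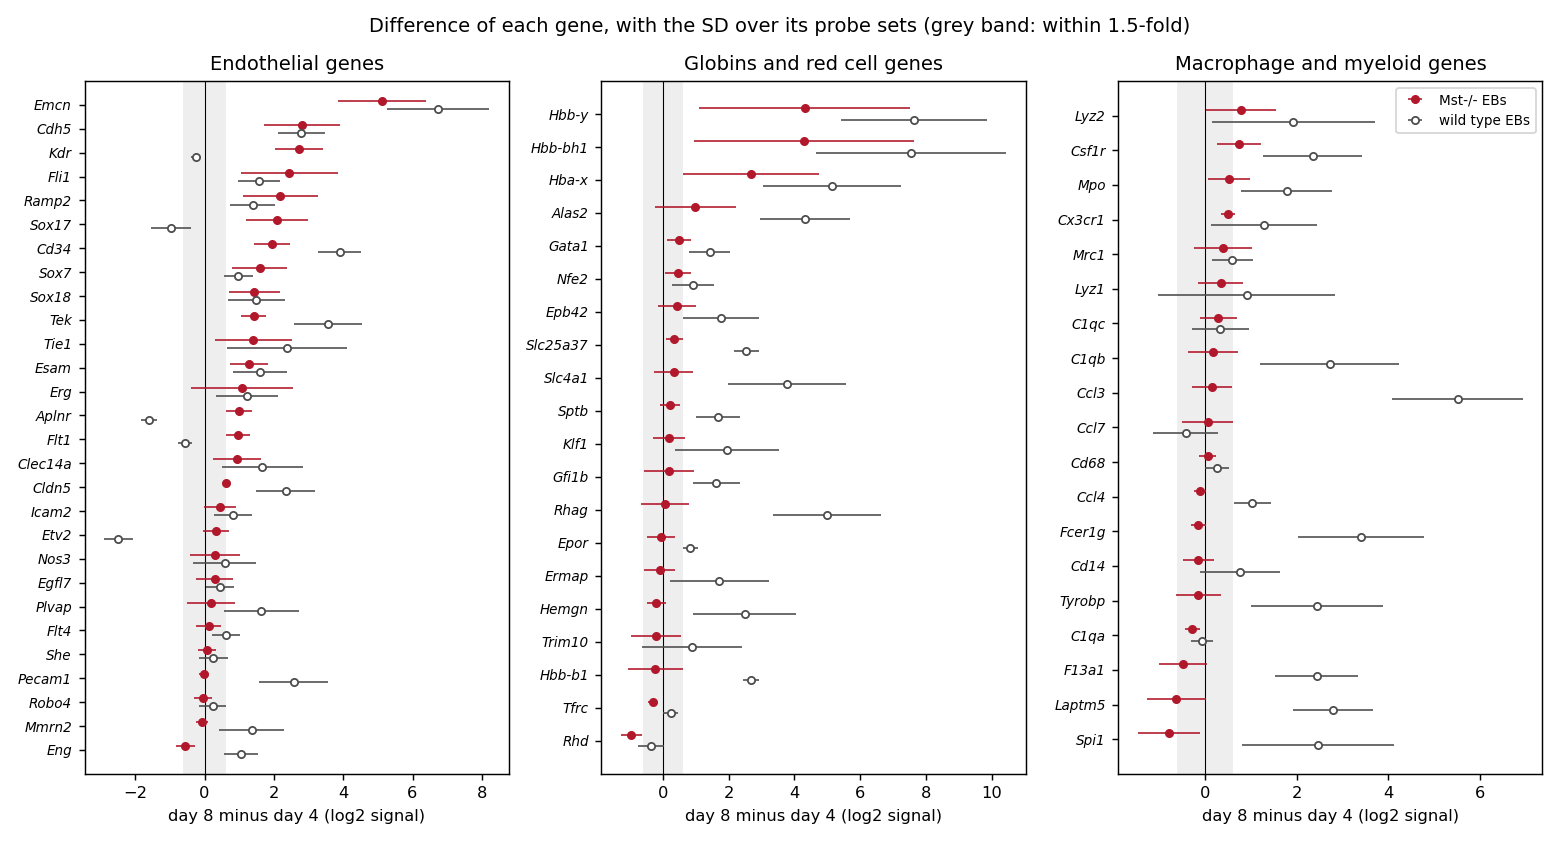
Difference between day 8 and day 4 (x axis, log2 signal) of endothelial, red cell and macrophage genes above background in at least 1 genotype, in *Mst-/-* EBs (red) and wild type EBs (open circles), with bars for the SD over each gene's probe sets. *Kdr* lies at 2.72 in *Mst-/-* EBs and -0.26 in wild type EBs, while *Slc4a1* and *Ccl3* lie at 0.33 and 0.15 in *Mst-/-* EBs and at 3.78 and 5.51 in wild type EBs.

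Genes of the extracellular matrix rose. Of the non-collagen matrix genes 21 of the 23 genes compared were higher at day 8 and 0 lower, with a median of 1.48 beside 1.54 in wild type EBs. *Tnc*, the glycoprotein tenascin C, was below background at day 4 and at least 7.84-fold higher. *Loxl2*, which crosslinks collagen, was at 11.33 at day 8 and 8.37 at day 4 (2.96 ± 0.96), and *Fbn2*, an embryonic fibrillin, at 9.71 at day 8 and 7.27 at day 4 (2.44 ± 0.98, but -0.12 in its brightest probe set). *Bgn*, the proteoglycan biglycan, was at 10.05 at day 8 and 7.44 at day 4 (2.61 ± 1.59). Related proteoglycans differed between the genotypes at day 8. *Dcn*, or decorin, was at 8.97 at day 8 and 7.42 at day 4 in *Mst-/-* EBs (1.55 ± 0.47) and at 13 at day 8 and 6.32 at day 4 in wild type EBs. *Lum*, or lumican, was at 9.22 at day 8 and 5.29 at day 4 in *Mst-/-* EBs, at least 4.79-fold higher, and at 12.69 at day 8 and 5.26 at day 4 in wild type EBs. *Dcn* and *Lum* were low on both day 4 arrays and brightest in wild type EBs at day 8. *Timp1*, an inhibitor of matrix proteases, was at -0.24 ± 0.36, and at 1.44 in wild type EBs.

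Of the collagens, 14 of 30 rose and 0 fell, and the median was 0.52 beside 0.91 in wild type EBs. In *Mst-/-* EBs 11 rose once dim signals were raised to background, and the median was then 0.36. The basement membrane chains *Col4a1* and *Col4a2* were at 10.47 at day 8 and 8.57 at day 4 (1.90 ± 1.03) and 10.05 at day 8 and 8.11 at day 4 (1.94 ± 0.91), with wild type differences of 0.91 and 1.23. The fibrillar chains *Col1a1*, *Col1a2* and *Col3a1* differed by 1.89 ± 1.55, 1.22 ± 1.20 and 1.62 ± 2.21 in *Mst-/-* EBs and by 3.99, 3.80 and 4.01 in wild type EBs. *Col18a1*, the source of endostatin, was at -0.06 ± 0.20 and 1.85 in that order. Of the laminins and integrins, 13 of the 21 genes compared were higher at day 8 and 0 lower, with a median of 0.71 (0.50 from the brightest probe sets). *Lama1*, the early laminin chain of basement membranes, was at 11.64 at day 8 and 9.04 at day 4 (2.60 ± 0.62), *Lama4*, a chain of vessel basement membranes, was at least 5.43-fold higher, and *Nid1*, which links laminin to collagen, differed by 2.00 ± 0.20. *Itga8* was at 1.48 ± 0.52, where wild type EBs had 0.06.

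Mesenchymal genes rose, and the epithelial adhesion genes *Cdh1* and *Epcam* stayed within 1.5-fold. In the mesenchyme list 13 of the 22 genes compared were higher at day 8 and 0 lower, and the median was 0.98, beside 0.54 in wild type EBs, though 0.27 in *Mst-/-* EBs from the brightest probe sets. *Snai2*, the repressor Slug, was at 11.05 at day 8 and 6.90 at day 4, at least 17-fold higher. *Pdgfra* and *Pdgfrb*, the receptors of platelet-derived growth factors, were at 9.85 at day 8 and 7.49 at day 4 (2.36 ± 0.83) and 9.88 at day 8 and 7.10 at day 4 (2.78 ± 0.99), and *Pdgfra* was at 0.35 in the wild type course. *Prrx1*, a homeobox factor of mesenchyme, was at least 5.03-fold higher. *Cdh1*, E-cadherin, and *Epcam* were within 1.5-fold, at -0.37 ± 0.14 and -0.45 ± 0.15, though *Epcam* was at -0.61 after centring. In the tight junction and keratin list 7 of the 21 genes compared were higher at day 8 and 2 lower, with a median of 0.17. With dim signals raised to background, 5 were higher. Among keratins, *Krt8*, *Krt18* and *Krt19*, of simple epithelia, rose by 0.95, 1.28 and 0.94, and *Krt17* fell by 1.15. The wild type differences of the first 3 were 0.08, 0.50 and 1.01, and *Krt17* was below background on both wild type arrays.

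The ES cells had once been grown on fibroblast feeders, and genes of fibroblasts mostly rose in *Mst-/-* EBs. Their list shares genes such as *Postn*, *Dcn* and *Col1a1* with the matrix and collagen lists, so that these lists do not move independently. Of 9 such genes compared, 8 were higher in *Mst-/-* EBs, among them *Col1a1*, *Dcn* and *Postn*, which embryonic mesenchyme also expresses. The median of the 9 was 1.59, beside 3.80 in wild type EBs. *Thy1*, the fibroblast surface marker, was at 8.12 at day 8 and 8.5 at day 4 (-0.38 ± 0.41), and *S100a4* was below background on both arrays. The part of feeder cells in the matrix result was not tested.

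Many of the genes that set position along the body axis rose. Of the Hox genes, 14 of the 25 genes compared were higher at day 8 and 0 lower, against 14 higher and 1 lower of 28 in wild type EBs, and another 8 were below background on both *Mst-/-* arrays. With dim signals raised to background, 9 of the 14 were past 1.5-fold and the median of the list was 0.28. *Hoxb2*, a gene of the hindbrain and anterior trunk, was at 10.15 at day 8 and 5.90 at day 4, at least 9.13-fold higher, with a wide spread over its 3 probe sets (SD 2.58). Its wild type signals were 10.28 at day 8 and 9.94 at day 4. *Hoxc8*, of the thoracic trunk, was at 9.23 at day 8 and 5.95 at day 4, at least 4.82-fold higher, and *Hoxa9*, *Hoxd9* and *Hoxc6* were at least 2.07-fold, at least 2.65-fold and at least 2.58-fold higher. *Hoxa10* and *Hoxa7* rose by 1.24 and 0.82, but were at -0.14 and -0.03 in their brightest probe sets, from which the median of the list was 0.05 in place of 0.64. Within 1.5-fold were *Hoxb1* (-0.15 ± 0.10), *Hoxb3* (0.53 ± 0.42), *Hoxa3* (-0.24), *Hoxa4* (-0.35 ± 0.62), *Hoxb5* (-0.07 ± 0.66) and *Hoxb6* (0.25 ± 0.23), and *Hoxb1* was at -1.70 in wild type EBs. Of the Cdx factors upstream of them, *Cdx2*, which also serves trophoblast and gut, was at 9.68 at day 8 and 7.70 at day 4 (1.98 ± 0.79), and at 8.88 at day 8 and 8.86 at day 4 in wild type EBs. *Cdx1* differed by 0.10 and *Cdx4* was below background at both days.

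Retinoic acid, the vitamin A derivative that activates Hox genes, is made by retinaldehyde dehydrogenases and destroyed by Cyp26 enzymes. *Cyp26a1* was at 10.77 at day 8 and 10.16 at day 4 in *Mst-/-* EBs (0.61 ± 0.20, but 0.45 and within 1.5-fold after centring). In wild type EBs it was at 8.15 at day 8 and 12.26 at day 4. The wild type signal was higher than the *Mst-/-* signal at day 4 and lower at day 8. The receptor *Rarb*, itself a target of retinoic acid, was at 9.58 at day 8 and 7.05 at day 4 (2.53 ± 0.99), and the receptor *Rxrg* fell to 7.20, against 9.24 at day 4 (-2.04 ± 0.39). *Stra6*, the retinol importer, and *Rdh10*, which makes retinaldehyde, rose by 1.02 and 0.99, though *Stra6* was at -0.05 in its brightest probe set, while *Dhrs3*, which turns retinaldehyde back to retinol, was at -0.99 ± 0.53, with 1.33 in wild type EBs. The binding proteins *Crabp1* and *Crabp2* differed by 0.71 ± 0.38 and 0.72 ± 0.35, and by 0.55 and 0.56 after centring. Over the list 6 of the 14 genes compared were higher at day 8 and 3 lower, against 5 higher and 3 lower of 15 in wild type EBs.

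The promoter of *Cyp26a1* is shown, chosen after its values were seen. It holds the letters AGTTCA in direct repeat with 5 bases of any kind between the copies. These letters are a form of the element of retinoic acid receptors. The promoter lies on the plus strand at chr19:37697558-37697807 of GRCm38.p6, from RefSeq. The element, read here as its reverse complement and printed in capitals, begins 32 bases before the start.
Cyp26a1: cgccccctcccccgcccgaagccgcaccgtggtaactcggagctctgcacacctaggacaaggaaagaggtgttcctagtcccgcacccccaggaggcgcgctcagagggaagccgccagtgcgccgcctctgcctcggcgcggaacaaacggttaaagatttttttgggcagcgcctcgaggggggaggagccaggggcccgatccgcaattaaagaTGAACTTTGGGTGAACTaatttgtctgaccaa

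Only 7 of the 32851 promoters (0.0213%) held these letters on either strand, and *Cyp26a1* was the only 1 of the 13 retinoic acid genes with a promoter. Other forms of the element and other sequences bound by these receptors were not searched. The counts therefore apply to these exact letters alone, and no conclusion about retinoic acid at *Cyp26a1* is drawn from the match.

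The median of the Wnt ligands was -0.16, and 2 of 15 were higher and 2 lower. Among all genes compared, 13.3% were higher and 7.48% lower. *Wnt5a*, a ligand of the non-canonical branch, was at 9.98 at day 8 and 6.81 at day 4, at least 8.08-fold higher, whereas wild type EBs had 9.27 at day 8 and 10.10 at day 4. *Wnt5a* was below background on the day 4 *Mst-/-* array alone. *Wnt2*, a ligand of heart and vessel mesoderm, was at 8.53 at day 8 and 6.97 at day 4 (1.56 ± 0.90), and rose in wild type EBs too, at 2.11. *Wnt11* was at 0.56 ± 0.39 and *Wnt2b* at 0.18 ± 0.35, with wild type differences of 0.62 and -1.89. *Wnt3* and *Wnt8a* fell, as given above. *Wnt3a* was at -0.02, *Wnt4* at 0.24, *Wnt5b* at -0.31, *Wnt7b* at -0.35, *Wnt9a* at -0.16, *Wnt9b* at -0.19, *Wnt10a* at -0.45 and *Wnt10b* at 0.25. *Wnt1*, *Wnt6*, *Wnt8b* and *Wnt16* were below background on both arrays.

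Secreted antagonists and feedback targets of Wnt rose more often in *Mst-/-* EBs than they did in wild type EBs, with 11 higher and 5 lower of 23, against 7 higher and 9 lower of 21 in wild type EBs. That difference was not tested. Among all genes compared, 13.3% were higher and 7.48% lower in *Mst-/-* EBs, and 16.7% and 12.7% in wild type EBs. *Dkk1*, which blocks the Lrp coreceptors, was at 10.98 at day 8 and 9.60 at day 4 (1.38 ± 0.28), and *Frzb* and *Sfrp5*, decoys of the Frizzled family, at 10.08 at day 8 and 8.22 at day 4 (1.87 ± 0.66) and 8.98 at day 8 and 7.36 at day 4 (1.62 ± 0.80). *Rspo3*, which prolongs Wnt signals, was at 1.14 ± 0.51 and *Nkd1*, an intracellular inhibitor, at 1.14 ± 0.68. The wild type differences of *Dkk1*, *Frzb* and *Rspo3* were -1.50, -1.91 and -1.79. The nuclear mediators *Lef1* and *Tcf7* were within 1.5-fold at 0.24 ± 0.20 and -0.22 ± 0.18, and at -1.64 and -1.10 in wild type EBs, while *Tcf7l2* rose by 1.18.

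Among fibroblast growth factors, *Fgf5*, *Fgf8* and *Fgf13* fell, at -1.63, -0.72 ± 0.57 and -1.02 ± 0.47, and *Fgf10*, a ligand of second heart field and limb mesenchyme, was at 9.49 at day 8 and 8.05 at day 4 (1.44 ± 0.59), with a wild type difference of -1.52. The receptors *Fgfr4* and *Fgfr3* rose by 1.69 and 1.04, and *Fgfr1* was at 0.03 ± 0.13. Of the Notch pathway, the effectors *Hey2*, of heart and vessels, and *Hey1* rose, to 9.57 and 9.44 at day 8, against 6.99 and 8.72 at day 4, while *Dll3*, *Jag2* and *Lfng*, a pair of ligands and a modifier, fell by 1.24, 0.87 and 0.64. The receptor *Notch1* was at 0.02. Of the Hedgehog pathway 8 of the 14 genes compared were higher at day 8 and 0 lower, with a median of 0.65 (0.23 from the brightest probe sets). *Hhip*, the antagonist induced by the pathway, was at least 2.11-fold higher, and *Ptch1*, the receptor and target, was at 11.06 at day 8 and 10.20 at day 4 (0.87 ± 0.27).

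Imprinted genes and genes of insulin-like growth factors rose, as 18 of the 27 genes compared were higher at day 8 and 1 lower. *Igf2*, the fetal growth factor, was at 12.84 at day 8 and 9.01 at day 4 (3.83 ± 1.74), and at 14.08 at day 8 and 11.94 at day 4 in wild type EBs. *Plagl1*, an imprinted zinc finger factor, was at 11.41 at day 8 and 9.41 at day 4 (2.00 ± 0.46), and *Dlk1*, a membrane protein of immature cells, at 10.45 at day 8 and 8.78 at day 4 (1.67 ± 1.31), where the wild type differences were 4.62 and 4.06. *Igfbp4* was at 11.12 at day 8 and 9.12 at day 4 (2.00 ± 0.59). *Igf1* was within 1.5-fold at -0.25 ± 0.98, and at 1.67 in wild type EBs. The trophoblast list had 4 higher and 3 lower of 13, beside 13.3% higher and 7.48% lower among all genes compared. Its rises were *Hand1*, *Cdx2* and *Gata3*, which mesoderm also uses, and *Tpbpa*, of spongiotrophoblast, which was at 7.02 at day 8, barely past background, and at -0.28 in its brightest probe set.

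More neural genes fell than rose. Of the neuronal list 2 of the 26 genes compared were higher at day 8 and 15 lower, and the median was -0.75, beside -0.26 in wild type EBs, though -0.29 in *Mst-/-* EBs from the brightest probe sets. *Nefl* and *Nefm*, chains of neurofilaments, fell by 2.64 and 1.81. *Nefl* was at 8.83 at day 8 and 11.47 at day 4 in *Mst-/-* EBs and at 8.12 at day 8 and 8.84 at day 4 in wild type EBs, and *Nefm* was at 7.94 at day 8 and 9.75 at day 4 and at 7.66 at day 8 and 8.23 at day 4. The day 4 *Mst-/-* array was thus the brightest of the 4 for both. *Tubb3*, the tubulin of neurons, differed by -1.22 ± 0.60 (0.11 in its brightest probe set), *Stmn3* by -1.63 ± 0.40, *Crmp1* by -1.38 ± 0.51 and *Ina* by -1.27 ± 0.19. *Stmn2* was at 9.81 at day 8 and 10.97 at day 4 (-1.16 ± 0.29), with -2.61 in the wild type course. *Gap43*, of growing axons, was within 1.5-fold at 0.25 ± 0.18. Of the neurectoderm progenitor genes 1 of the 21 genes compared was higher at day 8 and 5 lower. The shares over all genes compared were 13.3% higher and 7.48% lower. *Zic2* and *Zic5*, zinc finger factors of epiblast and neural plate, fell by 1.61 and 0.78, and *Nes*, or nestin, by 1.21, whereas *Sox1* was at -0.11 ± 0.20 and *Pax6* was below background at both days.

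Of the Hippo pathway components 4 of the 23 genes compared were higher at day 8 and 0 lower, against 5 higher and 2 lower of 22 in wild type EBs, beside 13.3% higher and 7.48% lower among all genes compared in *Mst-/-* EBs. *Amot*, angiomotin, a Yap-binding protein of tight junctions, was at 12.17 at day 8 and 10.20 at day 4 (1.97 ± 0.29), with -1.19 in the wild type course. *Lats2*, the kinase below Mst, was at 9.68 at day 8 and 8.6 at day 4 (1.08 ± 0.38), *Frmd6*, an upstream adaptor, at 10.09 at day 8 and 8.78 at day 4 (1.31 ± 0.37), and *Vgll4*, a Tead cofactor that opposes Yap, at 10.86 at day 8 and 9.58 at day 4 (1.28 ± 0.88). *Yap1* was at 10.88 at day 8 and 11.05 at day 4 (-0.18 ± 0.18). The factors *Tead1*, *Tead2* and *Tead4* were at 0.53 ± 0.15, 0.09 ± 0.25 and 0.58 ± 0.42, of which *Tead4* was at -0.83 in wild type EBs. Among genes known as Yap and Tead targets 9 of the 18 genes compared were higher at day 8 and 1 lower, and the median was 0.66, beside 0.53 in wild type EBs, though 0.22 in *Mst-/-* EBs from the brightest probe sets. *Tgfb2*, a ligand of heart cushions and mesenchyme, was at 11.00 at day 8 and 7.69 at day 4 (3.31 ± 1.04), *Axl*, a receptor kinase, at 10.27 at day 8 and 8.38 at day 4 (1.89 ± 0.87), and *Ankrd1*, a target that heart muscle also expresses, was at least 2.97-fold higher. The classic targets *Ccn1* and *Ccn2*, also known as Cyr61 and CTGF, were at 11.67 at day 8 and 10.74 at day 4 (0.93 ± 0.13) and 11.98 at day 8 and 11.42 at day 4 (0.56 ± 0.10). *Nt5e* fell, as above, and *Birc5*, or survivin, was at -0.32 ± 0.18.

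Genes of the cell cycle passed the threshold less often in *Mst-/-* EBs than with both kinases present. Of the list, 1 of the 29 genes compared was higher at day 8 and 1 lower, against 2 higher and 12 lower of 29 in wild type EBs. The difference between the counts was not tested. Over all genes compared the shares were 13.3% higher and 7.48% lower in *Mst-/-* EBs and 16.7% and 12.7% in wild type EBs. The cyclins moved most. *Ccnd2*, cyclin D2, was at 12.16 at day 8 and 10.13 at day 4 (2.03 ± 0.69) and *Ccne1*, cyclin E1, at 10.38 at day 8 and 11.56 at day 4 (-1.18 ± 0.21), while *Ccnd1* and *Ccnd3* were at -0.48 ± 0.12 and 0.53 ± 0.24. *Mcm7*, *Orc1* and *Pcna*, of DNA replication, differed by -0.18 ± 0.12, -0.52 ± 0.18 and -0.05 ± 0.14, and by -0.80, -1.19 and -0.43 in wild type EBs. *Cdk1* was at 0.02. Of the p53 targets and inhibitors, 0 of the 18 genes compared were higher at day 8 and 1 lower. *Cdkn1a*, the inhibitor p21, was at 11.29 at day 8 and 11.12 at day 4 (0.17 ± 0.07), and at 1.45 in wild type EBs.

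Of the apoptosis genes, 2 of the 22 genes compared were higher at day 8 and 1 lower. The shares among all genes compared were 13.3% higher and 7.48% lower. *Casp8*, the initiator caspase of death receptors, was at 10.03 at day 8 and 7.94 at day 4 (2.09 ± 0.34), and *Bmf*, a proapoptotic BH3-only protein, at 9.28 at day 8 and 8.09 at day 4 (1.19 ± 0.80). *Bid*, another one, fell to 9.01, against 9.82 at day 4 (-0.81 ± 0.34). *Bcl2*, *Bcl2l1*, *Mcl1*, *Foxo1*, *Foxo3* and *Foxo4* were within 1.5-fold, between -0.42 and 0.35.

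Genes of glycolysis and hypoxia had a median of 0.31, and 7 of the 27 genes compared were higher at day 8 and 0 lower. *Vegfa*, the growth factor of vessels, was at 11.14 at day 8 and 9.36 at day 4 (1.78 ± 1.06), *P4ha1*, which hydroxylates collagen, at 12.12 at day 8 and 10.57 at day 4 (1.55 ± 0.25), and the oxygen sensors *Egln1* and *Egln3* differed by 1.14 ± 0.13 and 1.01 ± 0.13. *Gapdh* and *Pgk1* were at 0.10 ± 0.05 and 0.06 ± 0.09. The lists of oxidative phosphorylation, ribosomal proteins and cholesterol synthesis had medians of -0.13, -0.04 and -0.07, and *Ndufa1*, of respiratory complex I, was the only 1 of their 24, 20 and 20 genes past 1.5-fold, at -0.79 ± 0.53.

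Of the interferon-stimulated genes, none rose in *Mst-/-* EBs. In the list 0 of the 17 genes compared were higher at day 8 and 7 lower, against 13 higher and 4 lower of 23 in wild type EBs, and the median was -0.45, beside 0.72 in wild type EBs. *Ifitm3*, an antiviral membrane protein that germ cell precursors carry, was at 11.16 at day 8 and 12.09 at day 4 (-0.93 ± 0.13), and at 11.10 at day 8 and 10.44 at day 4 in wild type EBs. At day 8 the 2 genotypes were alike in *Ifitm3*, and at day 4 the *Mst-/-* array was the brighter. *Oasl2* was at 8.22 at day 8 and 9.56 at day 4 (-1.34 ± 0.63), with 1.12 in the wild type course. *Psmb9* and *Psmb8*, subunits of the immunoproteasome, fell by 1.25 and 0.96, and *Gbp2* and *Irf1* by 1.31 and 0.85. *B2m*, the light chain of class I molecules, was at 0.58 ± 0.17. The macrophage genes given above moved with the interferon genes in wild type EBs and were mostly below background in *Mst-/-* EBs, and their part in this result was not tested.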

How the data were processed

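EBs of both genotypes were profiled at day 8 and day 4 on mouse exon arrays of Affymetrix (the 1.0 ST design), 1 per genotype and day. The table deposited by the authors holds log2 signals of 229581 probe sets. Expression Console of Affymetrix is named in the submitters' processing notes. How the arrays were normalized is unstated in the sources used here. Both *Mst-/-* arrays, each sorted by value, differed by at most 0.12. The methods name Partek, Genespring and a threshold of 1.5-fold.

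Probe sets with 1 symbol in the platform annotation (209279) gave 16358 genes, with 4446 of several symbols and 15856 of none left out. Old symbols (2145) were updated through RefSeq. Gene signals, background, differences and bounds were computed as stated in the report with Python 3.11.15, numpy 2.4.6, pandas 2.3.3 and matplotlib 3.10.9, and the steps were tested on simulated data. The number of arrays limits the precision.

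The comparison, members and lists were chosen with earlier results of these data known. Named genes were those the study discusses, the 15 largest differences in each direction among genes with at least 3 probe sets of which 75% moved the same way, up to 6 moved, 3 bright and 3 genotype-dependent members per list, all GATA, Cdx, Hox, Wnt and DNA methylation genes, and the 10 largest differences between the courses in each direction. Genes with a searched motif and genes at or below background in a list were named as well, after their values were seen. Alternatives were centring, quantile normalization, other summaries over probe sets, other background filters, raised dim values, a 2-fold threshold and agreement of probe sets. Promoters (250 bases before the start) came from RefSeq, GRCm38.p6.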

Additional observations from a re-analysis of the deposited data

Results flagged for a closer look

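Of the genes and lists given here, 25 genes and 1 list median stood past 1.5-fold in opposite directions in the 2 genotypes. Some of these genes were named because their courses differed most between the genotypes. With 1 array per genotype and day these differences between the courses were not tested, and all are given as differences of day 8 minus day 4 on the log2 scale, from the signals as deposited. With signals below background raised to it, 24 of the 25 genes still stood past 1.5-fold both ways, *Spi1* being the exception. Other settings changed more of them. After centring, *Cyp26a1* and *Crabp1* were at 0.45 and 0.55 in *Mst-/-* EBs, within 1.5-fold, and the brightest probe set of *Tph1* turned its sign. Among all 11697 genes compared in both genotypes, 64 were higher in *Mst-/-* EBs and lower in wild type EBs. Another 35 were lower in *Mst-/-* EBs and higher in wild type EBs. Of the 25 genes given here, 16 were higher in *Mst-/-* EBs and lower in wild type EBs. Those of signalling and its modulators were *Wnt5a* (3.17 and -0.83), *Bmper* (2.02 and -1.54), *Frzb* (1.87 and -1.91), *Fgf10* (1.44 and -1.52), *Dkk1* (1.38 and -1.50), *Rspo3* (1.14 and -1.79), *Cfc1* (1.05 and -2.26) and *Cxcr4* (1.06 and -2.84), with the *Mst-/-* difference first. The transcription factors were *Msx2* (2.70 and -1.24), *Sox17* (2.08 and -0.96) and *Tbx3* (1.97 and -0.93). The others were *Rgs5* (3.18 and -0.97), *Tph1* (2.27 and -2.28), *Amot* (1.97 and -1.19), *Crabp1* (0.71 and -0.93) and *Cyp26a1* (0.61 and -4.11).

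The other 9 genes were lower in *Mst-/-* EBs and higher in wild type EBs. *Oasl2* was at -1.34 in *Mst-/-* EBs and 1.12 in wild type EBs, and *Ifitm3*, the other interferon-stimulated gene among them, at -0.93 and 0.66. The genes of blood cells were *Coro1a* (-1.13 and 1.10), *Spi1* (-0.79 and 2.47) and *Laptm5* (-0.63 and 2.79). *Spi1* was below background in *Mst-/-* EBs at day 8 (6.47) and in wild type EBs at day 4 (6.35), and the background there leaves differences of -0.34 and 1.78. *Coro1a* was below background in *Mst-/-* EBs at day 8 (6.73), which leaves -0.93. *Apobec1* was at -1.39 and 2.28 (-1.19 and 0.72 with the background in place of dim signals), *Dhrs3* at -0.99 and 1.33, *Rhox6* at -0.87 and 0.65, and *Sox2* at -0.59 and 0.66.

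The median of the definitive endoderm list was 0.60 in *Mst-/-* EBs and -0.60 in wild type EBs, each just past 1.5-fold, and this difference was not tested either.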

How the results depend on the processing

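No paired analysis was possible because each genotype and day had 1 array, and for the same reason no array could be left out. Under 8 other settings applied to genes and lists, 193 of the 307 genes given and 25 of 48 list medians kept both their sign and their side of 1.5-fold throughout. The sign turned under at least 1 setting for 7 list medians, all within 1.5-fold to begin with. Centring turned those of macrophage (-0.10), apoptosis (-0.09) and trophoblast genes (-0.04), and the brightest probe set these and those of blood progenitor (-0.04), retinoic acid (-0.04), Wnt antagonist (-0.03) and Nodal genes (0.01). The count of lower genes, 908, was 1654 after centring. At 2-fold, 781 genes were higher and 229 lower. After centring the list medians were 0.44 for definitive endoderm, 0.55 for laminins and integrins, 0.48 for Hox genes, 0.49 for Hedgehog and 0.50 for Yap and Tead targets, all now within 1.5-fold, while naive pluripotency (-0.68) and interferon-stimulated genes (-0.60) passed it. After quantile normalization definitive endoderm was at 0.56, Hox genes at 0.55 and Hedgehog at 0.57. With the mean over probe sets core pluripotency was at -0.58, Cdx at 0.56 and Hedgehog at 0.57. With the median of the probe sets' own differences core pluripotency was at -0.58, Cdx at 0.51 and Hox genes at 0.29. Without a background filter Cdx was at 0.10 and Hox genes at 0.53, and with dim values raised to background Hox genes were at 0.28. With the 99th percentile as background the haemogenic list (0.61), collagens (0.60) and Wnt antagonists (0.83) passed 1.5-fold, from fewer genes. The brightest probe set alone moved most. It gave list medians of -0.37 for core pluripotency, -0.56 for primed epiblast, -0.37 for germline, -0.36 for primitive streak, -0.29 for neuronal, 0.10 for definitive endoderm, 0.31 for endothelial, 0.50 for laminins and integrins, 0.27 for mesenchyme, 0.53 for Cdx, 0.05 for Hox, 0.23 for Hedgehog and 0.22 for Yap and Tead targets. It also turned *Fbn2* (-0.12), *Hnf4a* (-0.18), *Hoxa10* (-0.14), *Hoxa7* (-0.03), *Ldb3* (-0.04), *Nkx2-5* (-0.06), *Smarca2* (-0.36), *Smarcd3* (-0.25), *Stra6* (-0.05), *Tnnt2* (-0.09), *Tpbpa* (-0.28), *Tph1* (-0.49) and *Tubb3* (0.11), and raising dim values turned *Plek* (-0.02). Their cause was not tested. For dim genes the background limits every fold to a bound.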

Other observations

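Genes outside the lists followed some of the same outlines. *Rgs5*, a regulator of G protein signalling known from pericytes, was at 10.28 at day 8 and 7.10 at day 4 in *Mst-/-* EBs (3.18 ± 1.52) and at 9.41 at day 8 and 10.37 at day 4 in wild type EBs. *Tph1*, which begins the synthesis of serotonin outside the brain, was at 8.48 at day 8 and 6.21 at day 4 in *Mst-/-* EBs, at least 2.87-fold higher (but -0.49 in its brightest probe set), whereas wild type EBs had 6.47 at day 8 and 8.75 at day 4. *Asb12*, a SOCS box protein of muscle, rose at least 3.12-fold in *Mst-/-* EBs. *Pla2g4a*, a phospholipase that releases arachidonic acid, was at -0.22 ± 0.26 in *Mst-/-* EBs and at least 4.90-fold higher in wild type EBs. *Apobec1*, the editing enzyme of apolipoprotein B transcripts, was at least 2.29-fold lower in *Mst-/-* EBs and at least 1.65-fold higher in wild type EBs.

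Several of the larger falls were of genes that at day 4 were brighter without the kinases than with them. *Tdpoz3*, of a gene cluster active in the early embryo, was at 8.30 at day 4 in *Mst-/-* EBs and at 4.58 in wild type EBs, and at least 2.61-fold lower at day 8 in *Mst-/-* EBs. The cluster holds close copies, which can share signal. *St8sia3*, a sialyltransferase of the nervous system, was at 9.17 at day 4 in *Mst-/-* EBs and 7.51 in wild type EBs, and at least 4.77-fold lower at day 8 in *Mst-/-* EBs. *Psors1c2* differed by -2.29 ± 0.89 in *Mst-/-* EBs. *Apln*, the peptide ligand apelin, was alike in both genotypes, at 7.35 at day 8 and 9.74 at day 4 in *Mst-/-* EBs and at 7.29 at day 8 and 9.85 at day 4 in wild type EBs.

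Among chromatin genes, 3 of the 25 genes compared were higher at day 8 and 2 lower. The shares among all genes compared were 13.3% higher and 7.48% lower. *Smarca2*, the ATPase Brm, and *Hmga2*, an embryonic architectural protein, were at 1.58 ± 0.93 (-0.36 in its brightest probe set) and 1.10 ± 0.45, while *Phc1* and *Cbx7*, Polycomb subunits of ES cells, were at -0.86 ± 0.22 and -0.74 ± 0.28. *Ezh2*, *Rnf2* and *Bmi1* were at 0.08, 0.31 and 0.51. Genes of the X chromosome had a median difference of -0.08 in *Mst-/-* EBs (396 genes, 56.1% below 0), beside -0.01 for 11704 autosomal genes. In wild type EBs the medians were 0.02 for 391 X-linked genes and -0.02 for autosomal genes. The medians of single autosomes in *Mst-/-* EBs ran between -0.04 and 0.04, and no test was made of the difference.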
